A study of Schizosaccharomyces pombe with 8 samples.

Results

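The genes described here are 10 named fission yeast genes of sporulation, spo3, spo4, spo5, spo6, spo7, spo13, spo14, spo15, spo20 and isp3. They were found by the gene symbol of each probe set, or by the current symbol of its gene identifier, and 9 of the 10 had a probe set, each with 1. No probe set was matched to spo13 (SPCC1183.12), which is not analysed here. These 9 stand among 2899 genes with a single name and 4994 yeast probe sets. Total RNA of Schizosaccharomyces pombe was measured on 8 Affymetrix arrays, 4 from separate cultures of a wild-type strain and 4 from cultures of a strain deficient in zfs1, numbered 1 to 4 in each strain. Both strains grew at 30 °C to an absorbance of 1.0 in Edinburgh minimal medium with adenine, histidine, leucine, lysine and uracil, which is a medium of steady growth and not of sporulation. The titles of the deficient samples carry the prefix deltaZFS, which marks a deletion of zfs1, and the labels give neither how much of the gene was removed, nor the mating type or other alleles of the strains. The zfs1 protein is named in the series title as binding and destabilising mRNA, and the comparison asks how steady-state transcript levels differ when it is missing.

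Fission yeast cells that run short of nitrogen mate, go through meiosis and turn each of the resulting nuclei into a spore. A double membrane, the forespore membrane, starts at the spindle pole bodies during the second meiotic division. Growing by fusion of secretory vesicles, it surrounds each nucleus. It gives rise to the plasma membrane of the spore, outside which the spore wall is laid down. Some genes with a spo name act only in meiosis, others serve secretion in growing cells as well and were found because sporulation fails in their mutants. During growth, transcripts of several meiotic genes, spo5 and mei4 among them, are removed by the RNA-binding protein Mmi1. Sequences of these genes are not shown here.

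Signals are on a log2 scale, a difference is zfs1-deficient minus wild type, and 1 unit is a doubling. The zfs1 transcript (SPBC1718.07C) checked the labels: its mean was 10.51 ± 0.10 (SD, n = 4) among wild-type cultures and 4.14 ± 0.45 (SD, n = 4) among deficient cultures. It exceeded the reporter controls on each of the 4 wild-type arrays and on 0 of the deficient arrays. These 17 reporter control probe sets are read as the level of background. The brightest of them, taken per array, lay at 4.65 to 5.11 in wild type and at 4.93 to 5.75 in the deficient strain. Their median per array was 3.27 ± 0.20 in wild type and 3.86 ± 0.37 without zfs1 (SD, n = 4), a difference of 0.59 (exact permutation test, 2-sided, p = 0.0857, where 0.0286 is the smallest p that 4 against 4 allows). Of the 17 controls 10 to 15 had a value on each array, and the median was taken over those. In 4 of 4 numbered pairs the deficient array had the higher median, and in 3 of 4 with missing values placed lowest. Values relative to these controls therefore stand beside each dim gene below.

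Of the 9 genes, 6 lay above every reporter control of their own array on all 8 arrays: spo3, spo6, spo7, spo14, spo15 and spo20. spo5 did so on 6 arrays, 3 of each strain, isp3 on 1 deficient array, and spo4 on none. Between the strains 2 of the 8 tested genes rose, spo6 and isp3, and 0 fell (limma, Benjamini-Hochberg adjusted p under 0.05), a share to be read against the 5.78% of all 4969 tested probe sets that were called, 3.56% higher and 2.21% lower. spo14, which was lower in the deficient strain, had an unadjusted p of 0.00923. In a fit blocked by replicate number, spo5 also rose and spo14 fell, which made 4 of 8 where 24.2% of all tested probe sets were called. The median difference of the 8 genes was 0.13, and that of all tested probe sets was -0.01.

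**Figure D1:**
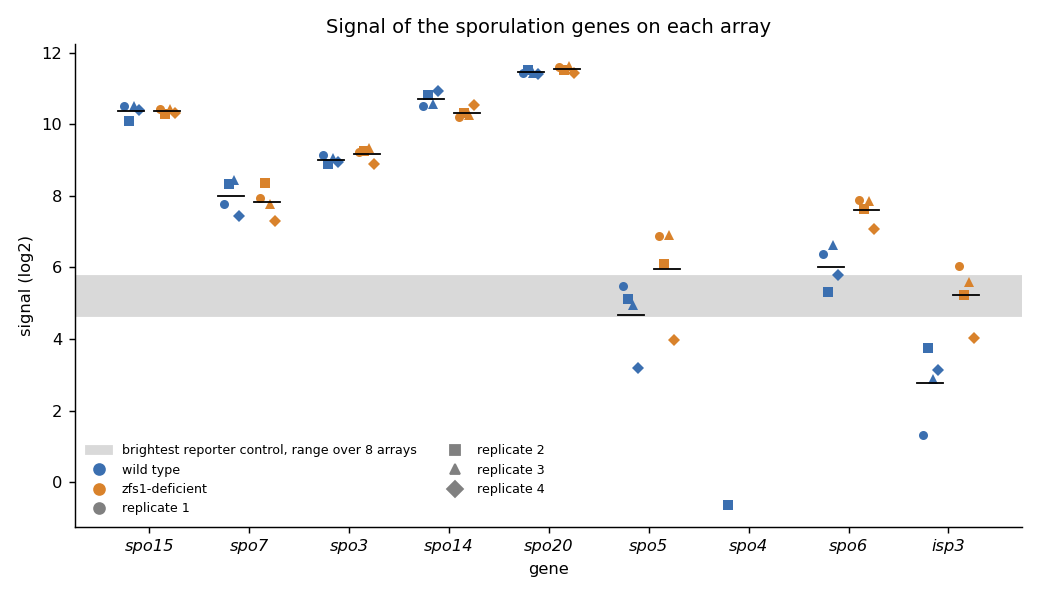
Log2 signal of each gene (x axis) on each array, with wild type in blue, zfs1-deficient in orange, the replicate number as symbol shape, the strain mean as a black bar, and the grey band spanning the brightest reporter control of the 8 arrays, 4.65 to 5.75. spo15, spo7, spo3, spo14 and spo20 lie above the band in both strains, isp3 lies in or under it except on 1 deficient array, and spo4 has 1 value; heights of different genes come from different probes and are not to be compared.

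Of the listed genes that build the forespore membrane, spo15, spo7 and spo3 were measured well above background. None of these differed between the strains past the threshold. spo15 (SPAC1F3.06C) encodes a coiled-coil component of the spindle pole body on which forespore membrane formation depends. Its signals were 10.50, 10.10, 10.51 and 10.39 in wild-type cultures 1 to 4 and 10.42, 10.29, 10.44 and 10.32 in the deficient cultures. All 4 deficient values lie inside the wild-type range. The difference was -0.01 ± 0.11 (SE, n = 4 per strain; limma adjusted p = 0.978), with a 95% interval from -0.25 to 0.23.

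spo7 (SPAC6G9.04, also named mug79) encodes a protein with a pleckstrin homology domain that is needed to start forespore membrane assembly. An unrelated gene, nem2, carries spo7 as a synonym in the gene table, and the probe set is the one of SPAC6G9.04. Its signals were 7.78, 8.33, 8.45 and 7.43 in wild type and 7.93, 8.34, 7.78 and 7.30 without zfs1. The strains overlapped, and culture 4 was the lowest of each strain. The difference was -0.16 ± 0.28 (SE; adjusted p = 0.799), and its interval ran from -0.77 to 0.46. With the reporter median of each array as a covariate it was -0.71 (adjusted p = 0.231).

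spo3 (SPAC607.10) encodes a membrane protein needed to assemble the forespore membrane. It gave 9.14, 8.90, 9.07 and 8.95 in wild type and 9.24, 9.24, 9.34 and 8.88 without zfs1. Deficient cultures 1 to 3 lay above every wild-type value, and deficient culture 4 lay below them all. The difference was 0.16 ± 0.12 (SE; adjusted p = 0.512), with an interval from -0.12 to 0.44. On all 8 arrays spo3 stood 3.49 to 4.42 above the brightest reporter control, so this meiotic membrane gene gave a clear signal in growing cells of both strains.

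The secretion genes spo14 and spo20 serve vesicle traffic in growing cells too. spo14 (SPBC3H7.01, also named stl1) encodes a relative of budding yeast Sec12, which starts vesicle formation at the endoplasmic reticulum. Its signals were 10.52, 10.81, 10.57 and 10.92 in wild type and 10.21, 10.31, 10.26 and 10.53 without zfs1. The groups met at the edge, since deficient culture 4 lay just above wild-type culture 1, while each deficient culture was lower than the wild-type culture of its number, by 0.31 to 0.50. The difference was -0.38 ± 0.12 (SE; adjusted p = 0.10; interval from -0.64 to -0.12), or 1.3-fold. It passed in the blocked fit (adjusted p = 0.00434) and with array weights (-0.37, adjusted p = 0.00584). It also passed without both replicate 4 cultures, the only pair left out together (-0.37, adjusted p = 0.0357). With the reporter median as a covariate it was -0.23 (adjusted p = 0.407).

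spo20 (SPAC3H8.10, also named sec14) encodes a phosphatidylinositol and phosphatidylcholine transfer protein of the Sec14 family. It gave 11.44, 11.52, 11.43 and 11.40 in wild type and 11.60, 11.52, 11.63 and 11.44 without zfs1. The strains overlapped and the spread within each was small. The difference was 0.10 ± 0.06 (SE; adjusted p = 0.420), with an interval from -0.04 to 0.24. With array weights, which gave the most weight to deficient cultures 1 and 3, it was 0.16 and passed (adjusted p = 0.0268).

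**Figure D2:**
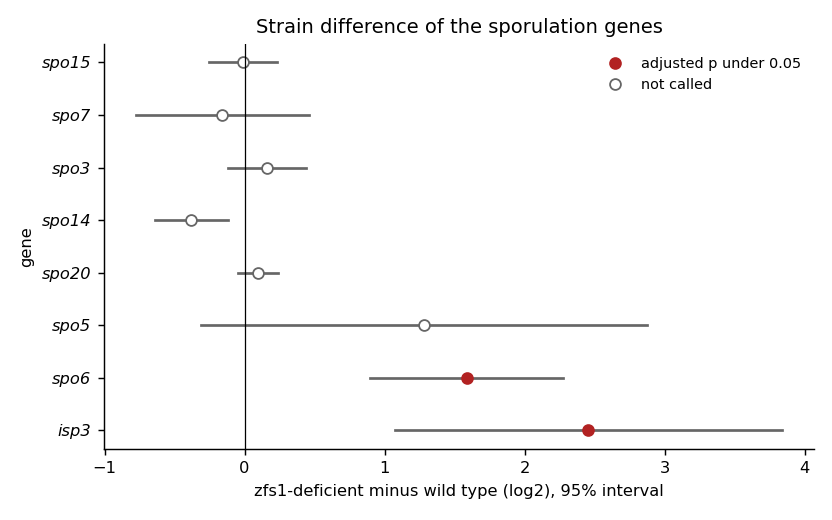
Strain difference of the 8 tested genes (x axis, log2, zfs1-deficient minus wild type; y axis, gene) with its 95% interval, filled red where the adjusted p is under 0.05. spo6 at 1.59 and isp3 at 2.46 are called, spo5 at 1.28 has an interval that holds 0, and the other 5 lie between -0.38 and 0.16.

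The kinase pair of the second meiotic division was split. spo6 was measured in both strains, while spo4 had 1 wild-type value, within the range of the reporter controls, and no deficient value. spo6 (SPBC1778.04) encodes the regulatory subunit, related to Dbf4, of the meiosis-specific kinase Spo4, and both act in the second meiotic division. Its transcription in meiosis depends on the forkhead factor Mei4. Its signals were 6.37, 5.31, 6.62 and 5.80 in wild-type cultures 1 to 4 and 7.89, 7.62, 7.86 and 7.07 in the deficient cultures. Every deficient culture lay above every wild-type culture, with a gap of 0.45 between the highest wild-type and the lowest deficient value. Groups that do not overlap in this direction were found for 7.81% of probe sets with all 8 values.

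spo6 rose between a wild-type mean of 6.02 ± 0.59 and a deficient mean of 7.61 ± 0.38 (SD, n = 4). The difference was 1.59 ± 0.31 (SE; limma adjusted p = 0.0185; interval from 0.90 to 2.27) or 3.0-fold. Among the 4969 tested probe sets this ranked 35 in size of rise. By replicate number the rises were 1.52, 2.31, 1.24 and 1.27. The largest belongs to culture 2, where wild type was lowest. The call was lost without deficient culture 1 (1.49, adjusted p = 0.0706) or 3 (1.50, adjusted p = 0.0691), and with the reporter median of each array as a covariate (1.25, adjusted p = 0.127). The mean of that reporter median was 0.59 higher in the deficient strain (exact permutation test, p = 0.0857).

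How far spo6 stood above background was read against the brightest reporter control of the same array. In wild-type cultures 1 to 4 it stood 1.56, 0.20, 1.96 and 0.92 above that control. In the deficient cultures it stood 2.14, 1.92, 2.18 and 2.14 above it. The deficient cultures were alike in this margin and the wild-type cultures were not, and the mean margin was 0.93 larger in the deficient strain, less than the 1.59 of the signal itself. When all values were raised to at least the brightest reporter control of any array, the difference was 1.48 and kept its call (adjusted p = 0.0250).

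spo4 (SPBC21C3.18), the catalytic subunit of that kinase, is related to Cdc7. It had a value on 1 of 8 arrays, wild-type culture 2, at -0.63, which is 5.74 below the brightest reporter control there. It could not be tested. No statement on its level is possible beyond that 1 value, and none for the deficient strain, where every value was missing. hsk1 and dfp1, which encode the related kinase and regulator of growing cells, were above the controls on all 8 arrays. They differed by -0.16 ± 0.13 (SE; adjusted p = 0.560) and -0.21 ± 0.11 (SE; adjusted p = 0.322).

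**Figure D3:**
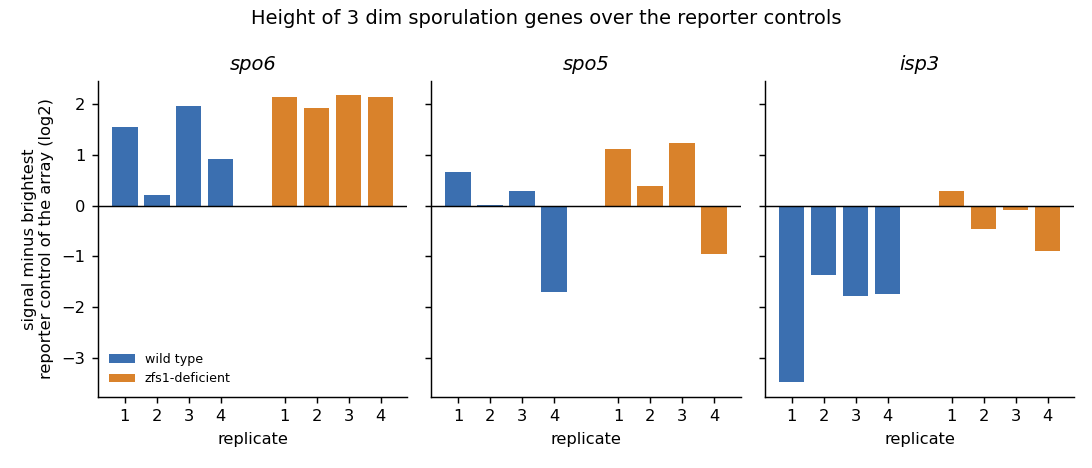
Height of spo6, spo5 and isp3 over the brightest reporter control of the same array (y axis, log2; bars start at 0), for replicates 1 to 4 of wild type (blue) and of the zfs1-deficient strain (orange). spo6 is above 0 on all 8 arrays, spo5 is below 0 in replicate 4 of both strains, and isp3 is above 0 on 1 array, by 0.29.

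spo5 (SPBC29A10.02, also named mug12) encodes an RNA-binding protein needed for progress through the second meiotic division. Its signals were 5.48, 5.13, 4.94 and 3.18 in wild type and 6.87, 6.09, 6.91 and 3.97 without zfs1. In both strains culture 4 was far below the others and within the range of the reporter controls, where 6 of 12 measured controls in wild type and 3 of 10 in the deficient strain were brighter. In cultures 1 to 3 spo5 was above the controls of its array, by as little as 0.02 in wild-type culture 2 and by up to 1.23 in deficient culture 3.

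The difference of spo5 was 1.28 ± 0.71 (SE; adjusted p = 0.345), with an interval from -0.31 to 2.87. Each deficient culture was higher than the wild-type culture of its number, by 1.39, 0.97, 1.97 and 0.79. It passed in the blocked fit (adjusted p = 0.0155), with array weights (1.67, adjusted p = 0.00978) and without both replicate 4 cultures (1.44, adjusted p = 0.0194). Replicate 4, where spo5 was lowest in both strains, was the only pair left out together. Array weights also gave its arrays the least weight, 0.26 and 0.20, so these passes are not independent of each other. The difference did not pass with values raised to the brightest reporter control of any array (0.66, adjusted p = 0.206) or with the offset of 64 (0.56, adjusted p = 0.251). Nor did it pass in any of the 8 fits that leave out 1 culture, which gave 0.78 to 1.94. With the reporter median as a covariate it turned to -0.58 (adjusted p = 0.640).

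isp3 (SPAC1F8.05, also named meu4) encodes a protein of the outermost layer of the spore wall. Its signals were 1.33, 3.75, 2.88 and 3.13 in wild type and 6.04, 5.24, 5.59 and 4.04 without zfs1. The strains did not overlap, with a gap of 0.29, as was found in this direction for 7.81% of probe sets with all 8 values. However, 7 of the 8 values of isp3 lay within the range of the reporter controls of their array. On the wild-type arrays 5 to 12 of the measured controls were brighter than isp3. On the deficient arrays 0, 4, 1 and 3 controls were brighter in cultures 1 to 4. By replicate number the differences were 4.72, 1.49, 2.71 and 0.90, the largest in culture 1, where wild type was lowest.

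The measured means of isp3 were 2.77 ± 1.03 and 5.23 ± 0.86 (SD, n = 4). They differed by 2.46 ± 0.62 (SE; limma adjusted p = 0.0498; interval from 1.07 to 3.84). Every wild-type array is within the reporter range, and the deficient mean also lies below the mean of the brightest controls of its arrays, 5.51, so no fold is given. With all values raised to the brightest reporter control of any array, 0.07 of the difference was left (adjusted p = 0.60). An offset of 64 on the linear signal gave 0.54 (adjusted p = 0.0558), and the call was kept in 1 of the 8 fits that leave out 1 culture, that without deficient culture 4 (highest adjusted p among the others, 0.151). With the reporter median as a covariate the difference was 1.24 (adjusted p = 0.352). The call was kept with the replicate block (adjusted p = 0.0302), with array weights (3.49, adjusted p = 0.00109) and without both replicate 4 arrays (2.97, adjusted p = 0.0264). Those fits used the same signals, mostly within the range of the reporter controls.

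**Figure D4:**
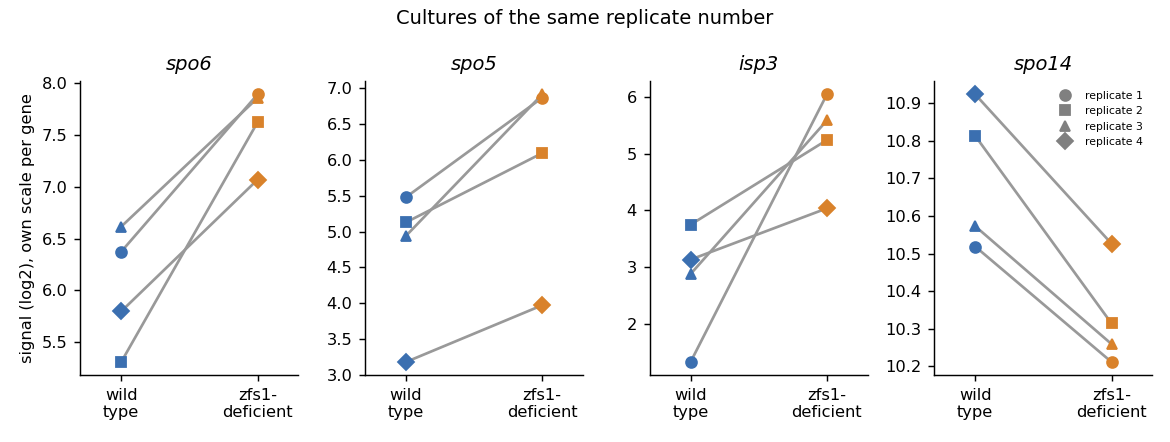
Log2 signal (y axis, a separate scale per gene that does not start at 0) of spo6, spo5, isp3 and spo14 in wild type (blue) and the zfs1-deficient strain (orange), with grey lines joining cultures of the same replicate number. All 4 lines rise for spo6, spo5 and isp3 and fall for spo14, and for spo5 culture 4 lies lowest in both strains.

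The level of the culture numbered 4 differed from gene to gene. Of the 8 genes with all values, 6 had their lowest deficient value in culture 4, where 41.5% of all tested probe sets did. In wild type 3 of 8 did, where 37.0% of all did. The same 3, spo5, spo7 and spo20, had their lowest value there in both strains, where 28.2% of all did. spo5 was 2.0 lower in wild-type culture 4 than the mean of the other wild-type cultures, and 2.65 lower in the deficient strain. isp3 was 0.48 higher in wild-type culture 4 and 1.59 lower in the deficient culture 4. spo14 was higher there in both strains, by 0.29 and 0.27. This description was made after the values were seen, and 1 array per strain stands behind it.

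In the gene table, isp3 stands next to pfl8 (SPAC1F8.06), a gene of the flocculin family of cell surface glycoproteins. pfl8 was bright in every culture, at 9.65, 8.85, 9.10 and 10.70 in wild type and 11.39, 11.78, 11.44 and 11.92 without zfs1. It rose by 2.06 ± 0.35 (SE; adjusted p = 0.0107). Both adjoining genes were thus called higher, isp3 on signals mostly at background. Of the 20 nearest protein-coding genes on either side of the 10 listed genes, 13 could be tested, and pfl8 was the 1 called, where 5.78% of all tested probe sets were. The other 12 differed by -0.31 to 0.33, the smallest adjusted p among them being 0.202. In the blocked fit 3 of the 13 rose and 1 fell, where 24.2% of all tested probe sets were called. The genes next to spo6 and spo5 that could be tested, fim1 at 0.13 (adjusted p = 0.253, and 0.0360 with the block), ccr1 at -0.12 (adjusted p = 0.261) and pcf1 at -0.06 (adjusted p = 0.823), did not pass in the unblocked fit.

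Other genes of meiosis and spore formation were read from 6 lists of 91 gene names, 78 of them tested. Not every name is a further gene, since sec14, which matched no probe set, is another name of spo20. In all 1 of the 78 was called, 1.28% against the 5.78% of all tested probe sets, and 15 in the blocked fit, 19.2% against 24.2%. The gene called was cig2, a B-type cyclin that acts before S phase in growth and in meiosis. It rose by 0.66 ± 0.11, between means of 10.29 ± 0.07 and 10.95 ± 0.21 (SE of the difference, SD of the means, n = 4; adjusted p = 0.0107). In the list of meiotic division, with 11 tested genes and a median difference of 0.19, mes1, which restrains the anaphase-promoting complex between the meiotic divisions, differed by 0.42 (adjusted p = 0.0607, and 0.0163 with the block).

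Of 13 regulators of meiosis and sporulation 0 passed in limma. An unadjusted p under 0.05 was found for 1 higher and 0 lower, and the median difference was 0.28. mei4, the forkhead factor on which spo6 transcription depends, lay above the controls on all 8 arrays and differed by 0.74 ± 0.27 (SE; adjusted p = 0.163, and 0.0209 with the block, where sep1 rose as well). mmi1, the gene of the RNA-binding protein that removes meiotic transcripts, differed by -0.02 ± 0.11 (SE; adjusted p = 0.946). cuf2, a meiotic transcription factor, differed by 0.97 (adjusted p = 0.273) and was above the controls on 3 of 8 arrays.

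Genes listed under the spore wall and late sporulation, a list that also holds isp4, isp5, isp6 and isp7, lay on both sides of 0. Of 16 tested 0 passed in limma. An unadjusted p under 0.05 was found for 2 higher and 2 lower genes, with a median difference of -0.19. chs1, the chitin synthase, differed by 0.55 ± 0.14 (SE; adjusted p = 0.0575), isp6, a vacuolar protease, by 0.41 ± 0.11 (SE; adjusted p = 0.0682), and agn2, an endo-glucanase that frees spores from the ascus, by -0.39 ± 0.15 (SE; adjusted p = 0.165). With the block 2 of the 16 rose, chs1 and isp6, and 6 fell, among them agn2, isp7 and the glucan-modifying enzyme gene gas4, where 11.3% of all tested probe sets rose and 12.8% fell.

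Among partners of the spo genes in membrane formation and secretion the list medians were close to 0, while single genes were not. Of 13 tested genes of the forespore membrane 0 passed in limma and 1 was lower at an unadjusted p under 0.05, the septin gene spn5 at -0.98 ± 0.31 (SE; adjusted p = 0.106), which lay above the controls on 3 of 8 arrays. The syntaxin gene psy1 differed by -0.05 (adjusted p = 0.908) and the calmodulin gene cam1 by 0.08 (adjusted p = 0.719), and the median of the list was 0.08. Of 12 genes of the secretory pathway 0 passed in limma and 0 at an unadjusted p under 0.05, with a median difference of -0.01. sar1, the GTPase that Sec12-type proteins such as Spo14 activate, differed by -0.03 (adjusted p = 0.882). With the block 1 of the 12 rose, sec31.

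Markers of cells in meiotic prophase were mostly near background. Of 13, 4 lay above the reporter controls on all 8 arrays, rec10, rec12, mcp7 and dhc1, and 3 on none, rec8, rec27 and hop1. In limma 0 passed, an unadjusted p under 0.05 was found for 2 higher and 1 lower, and the median difference was 0.30. Their summed level ran from 9.44 to 9.77 in wild type and from 9.86 to 9.95 in the deficient strain, without overlap. Without mcp7 it ran from 8.78 to 9.08 and from 8.94 to 9.24, with overlap. Sums of the meiotic division list did not overlap either, at 12.93 to 12.98 and 13.07 to 13.27, and those of the other lists did. Such sums add linear signals, so bright genes weigh most. The meiotic division list holds the called gene cig2, at means of 10.29 and 10.95, and its sum without cig2 was not taken. How often sums of other gene sets separate was not tested. rec10, of the meiotic chromosome axis, differed by 0.73 ± 0.21 (SE; adjusted p = 0.0785), mcp7, a recombination factor, by 0.53 ± 0.18 (SE; adjusted p = 0.140), and rec11, a meiotic cohesin subunit, by -0.76 ± 0.30 (SE; adjusted p = 0.195). rec11 lay above the controls on 4 wild-type arrays and on 2 deficient arrays. With the block 2 of the 13 rose, rec10 and mcp7. More cells in meiosis and more RNA per cell cannot be told apart in such samples, and the part of these markers in the rise of spo6 was not tested.

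**Figure D5:**
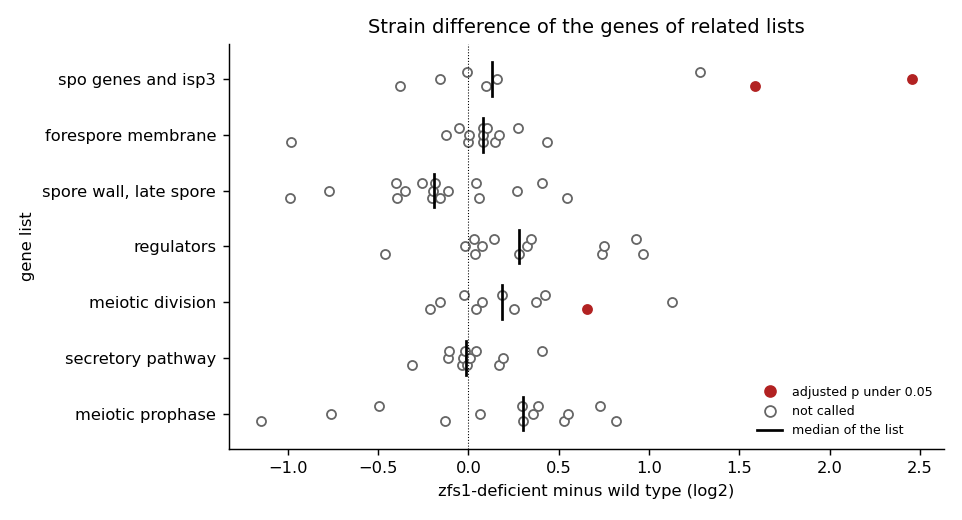
Strain difference (x axis, log2, zfs1-deficient minus wild type) of each tested gene of the spo genes with isp3 and of 6 related lists (y axis), with the list's median as a black bar and red fill where the adjusted p is under 0.05. spo6, isp3 and cig2 are the 3 called genes, and the medians of the lists lie between -0.19 and 0.30.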

How the data were processed

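RNA of 8 yeast cultures, 4 per strain, was measured on 8 arrays. Per the labels, biotin-labelled cRNA was made from 1 µg of total RNA, 5 µg of it was hybridised for 16 h, and the GeneChip Operating Software gave the signals. A nematode array is named in the labels, but the probe table used here pairs these probe sets with fission yeast genes. The deposited table was taken to hold log10 signal. That base is inferred, since array medians lay between 2.890 and 2.901, and the authors' scaling and summary of probes are not given in the sources used here. Another base would scale every difference by 1 factor.

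Values were turned into log2 and used as deposited, since the array medians lay between 9.61 and 9.64. Of 5011 probe sets 17 were reporter controls. Of the other 4994, 228 values (0.571%) were missing, and 25 were left untested for having under 2 values in either strain. Missing values were not imputed. Names came from the probe table, updated by gene identifier through a RefSeq gene table of assembly ASM294v3, which found 2913 of 2916 single-named probe sets. No genome was used here, the build of the array design is not given, and no coordinates are printed. List genes were read from the probe set with the highest mean.

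The strain comparison used limma 3.58.1 under R 4.3.3 (a linear fit with trended empirical Bayes variances, 2-sided, tested on simulated data), adjusted by Benjamini-Hochberg over 4969 probe sets. Controls were compared by an exact permutation test (scipy 1.17.1). The members and lists were chosen with earlier results of these data known. The named genes are every member, the called genes of each list and up to 3 others with the smallest p, and those named beyond this rule (hsk1, dfp1, mmi1, psy1, cam1, sar1, isp7, gas4, sec31 and the genes next to members) were picked with their values known. The number of arrays limits precision.

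The labels do not say that a number marks a shared day. Deviations from the strain mean correlated between same-numbered arrays at 0.33, 0.29, 0.18 and 0.66 for numbers 1 to 4. All were over the minimum of 0.1, but so were some arrays of unlike number. Those ran from -0.48 (wild-type 4 with deficient 3) to 0.37 (wild-type 1 with deficient 3). The main fit did not use the numbers, and the blocked value stands beside each result it changes.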

Additional observations from a re-analysis of the deposited data

Results flagged for a closer look

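The brightest reporter control of zfs1-deficient culture 4 was at 4.93, far below the other deficient cultures, at 5.75, 5.70 and 5.68, with a gap of 0.914 of the whole range, past the 95% critical value of Dixon for 4 samples. It lay within the wild-type values of 4.65 to 5.11. Of 20 groups of 4 values examined, the members' and the controls', this was the 1 that stood out, and chance gives about 1 in 20. spo5 and isp3 were among the 6 of 8 genes with their lowest deficient value in the same culture, where 41.5% of all tested probe sets had theirs.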

How the results depend on the processing

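The count of 2 called sporulation genes became 4 with the replicate block, 4 without both replicate 4 arrays, 5 with array weights, 1 with the offset of 64, 1 with values raised to the brightest reporter control, and 0 with the reporter median as a covariate. It was 0 without the dimmest 25% of probe sets, where spo6, spo5, spo7 and isp3 were no longer tested. It ranged from 0 to 2 when 1 array was left out. The count of 287 over all probe sets became 1201 with the replicate block, 1275 with array weights, 609 without both replicate 4 arrays and 149 with the covariate, and ranged from 103 (without zfs1-deficient replicate 3) to 306 (without zfs1-deficient replicate 4) when 1 array was left out. The reversals concern differences that were not called: spo15 became 0.0020 under quantile normalisation and 0.0099 without both replicate 4 arrays, and ranged from -0.10 to 0.036 with 1 array left out, where spo7 ranged from -0.35 to 0.023. With the covariate spo3 became -0.044, spo20 -0.021 and spo5 -0.58, and without a change of sign spo7 became -0.71 and spo14 -0.23. The causes were not tested. The rise of spo6 kept its direction in all 18 alternatives that could test it, from 0.99 (offset of 64) to 1.78 (without wild-type culture 3). The higher level of the reporter controls ranged from 0.45 to 0.75 with 1 array left out, was 0.65 for the brightest control and 0.68 with missing values placed lowest, an alternative added after seeing the data (exact permutation p = 0.200, and 0.0571 for the brightest). Centring array medians, leaving out the variance trend or probe sets with a missing value changed no call of the 8 genes. Dim signals limit what can be said of spo4, isp3 and spo5.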
